A study of Rattus norvegicus with 8 samples.

Results

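This account describes the sodium, bicarbonate and sulfate transporters of the proximal tubule, their scaffold proteins and 2 accessory subunits of the sodium pump in rat kidney. The members were chosen by name: Slc9a3, Slc13a1, Slc4a4, Slc13a3, Slc26a1, Slc9a3r1, Pdzk1, Atp1b1 and Fxyd2, 9 genes in all. A gene was counted where a probe set, the group of oligonucleotides that reports 1 transcript, was annotated to it alone. That held for 8 of the 9 members, with 1 probe set each, out of 17245 genes with a probe set of their own and 29214 probe sets on the array. Slc9a3r1 is listed under its present symbol, Nherf1, and is called so here. Slc26a1 has no value, because both of its probe sets (2) are also annotated to Idua. A further probe set of Atp1b1, also annotated to Nme7, was not used either. All 8 members with a value passed the filter on dim genes.

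Whole kidneys were taken from rats of the HSRA line at 4 weeks of age. HSRA derives from a heterogeneous stock and is a model of unilateral renal agenesis, in which some animals are born with 1 kidney. The 4 HSRA-S samples are congenital solitary kidneys. The 4 HSRA-C samples, set as the control, come from 2-kidney animals of the same line, so both groups carry its genetic background. Total RNA of each sample was hybridised to a Rat Gene 1.1 ST array, and the samples are described as independent. The sources used here do not give sex, litter, time of collection or the side of the kidney. The defining proximal markers were bright on every array: the endocytic receptors Lrp2 (log2 10.99 to 11.34) and Cubn (10.59 to 10.98), and the phosphate transporter Slc34a1 (11.83 to 12.09).

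The proximal tubule takes back most of the sodium, bicarbonate and sulfate that the glomerulus filters. On the luminal side the sodium-proton exchanger NHE3, encoded by Slc9a3, brings sodium in and secretes acid. Bicarbonate then leaves on the blood side through the sodium-bicarbonate cotransporter encoded by Slc4a4. The sodium pump on the blood side keeps cell sodium low and so drives both steps. It consists of a catalytic subunit, a beta subunit such as Atp1b1 that brings it to the membrane, and in the kidney an FXYD protein such as Fxyd2 that tunes its affinity for sodium.

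The 6 proximal members with a value had higher means in HSRA-S, while both pump subunits lay close to 0, but no member passed the test. The test was limma across 13796 genes with Benjamini-Hochberg adjustment at 0.05, which called 0 genes, or 0% of those tested. The largest member differences were those of Slc4a4 and Pdzk1, at 1.30-fold and 1.23-fold. These 2 of the 8 members were higher at an unadjusted p under 0.05, against 7.36% of all genes in that direction, and 0 of 8 were lower, against 4.69%. The difference was above 0 in 7 of 8 members and in 55.5% of all genes. Its median was 0.13 on the log2 scale over the 8 members and 0.015 over all genes tested. Over the 6 proximal members it was 0.17, and over 17 proximal markers outside the members it was also 0.17. The groups overlapped for every member with a value (0 of 8 without overlap, against 6.29% of all genes). All levels below are log2 intensities, differences are HSRA-S minus HSRA-C on that scale, and levels of different probe sets cannot be set against each other.

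**Figure D1:**
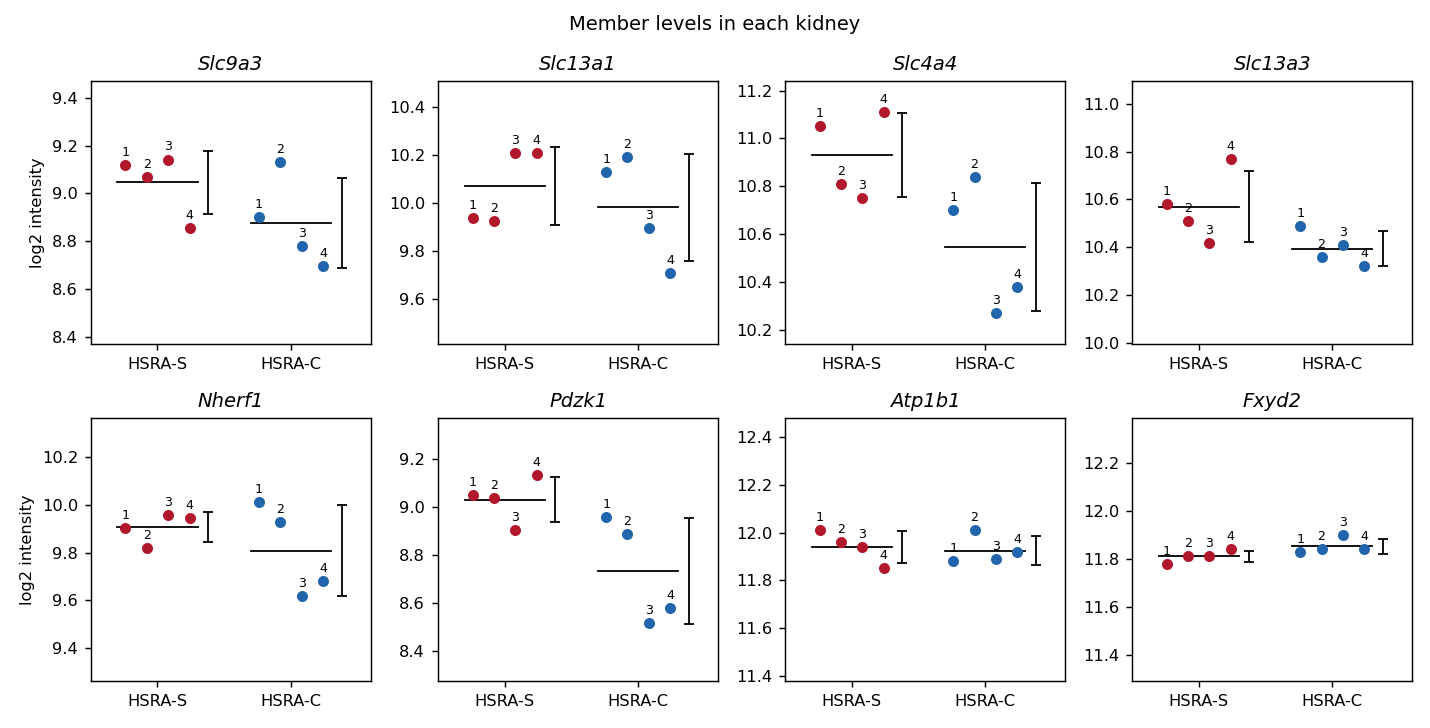
Log2 intensity (vertical axis, the same span in each panel) of the 8 members in 4 HSRA-S (red) and 4 HSRA-C (blue) kidneys, with the replicate number above each point, a line at the group mean and a bar of 1 SD on each side. HSRA-C replicates 3 and 4 hold the lowest 2 points of Slc9a3, Slc13a1, Slc4a4, Nherf1 and Pdzk1, whereas all points of Fxyd2 lie between 11.78 and 11.90.

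HSRA-C replicates 3 and 4 stood apart from the other 6 arrays in medullary markers, and each member's value is therefore also given without them. The inner medullary urea transporter gene Slc14a2 had a log2 level of 8.86 and 9.0 in them and between 4.44 and 7.22 elsewhere. Of the 12 genes on the list of principal cell and inner medullary markers, 11 were tested, and all 11 were lower in HSRA-S on average. Their mean level per array ran from 7.28 to 8.15 in HSRA-S and from 7.67 to 8.80 in HSRA-C, where replicates 3 and 4 were at 8.63 and 8.80. The mean of the proximal marker list (17 of 20 tested, no member among them) ran from 9.99 to 10.38 in HSRA-S and from 9.81 to 10.07 in HSRA-C, with 9.81 and 9.83 in those same arrays. HSRA-S replicate 4 lay at the other end, lowest in Slc14a2 (4.44) and the medullary list (7.28) and highest in the proximal list (10.38). Without it the differences were 0.32 for Slc4a4, 0.26 for Pdzk1, 0.11 for Slc13a3, 0.041 for Slc13a1, 0.084 for Nherf1 and 0.23 for Slc9a3, the last of these larger than with all arrays. The part of the medullary and proximal marker levels in the members' differences was not tested. The 17 proximal markers had a median difference of 0.17, with 14 above 0 and 3 below. At an unadjusted p under 0.05, 6 were higher and 1 lower, against 7.36% and 4.69% of all genes. Groups did not overlap for 4 of the 17, against 6.29%. Without HSRA-C replicates 3 and 4 their median was 0.042, and that of the 6 proximal members went from 0.17 to 0.069. The defining markers Lrp2, Cubn and Slc34a1 differed by only 0.053, 0.023 and -0.036 with all arrays. In HSRA-C replicates 3 and 4, Cubn (10.61 and 10.67) and Slc34a1 (11.92 and 11.94) lay inside the range of the other arrays. Lrp2 was at 10.99, its lowest level, and 11.09 in them. The median difference was -0.18 for 6 stromal markers, -0.16 for 4 endothelial, -0.14 for 5 podocyte, -0.19 for 8 intercalated cell and 0.30 for 8 leukocyte markers. In whole kidney, where a proximal gene was lower, fewer proximal cells and less RNA per proximal cell cannot be told apart. Without HSRA-C replicates 3 and 4, 0 of 8 members were at an unadjusted p under 0.05, against 4.85% of all genes (2.68% higher and 2.17% lower). The difference was then above 0 in 4 of 8 members and in 55.2% of all genes, and the members' median was 0.012.

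Slc9a3 encodes NHE3, the main route of sodium entry across the luminal membrane. Its level in the HSRA-S replicates was 9.12, 9.07, 9.14 and 8.86, and in the HSRA-C replicates 8.90, 9.13, 8.78 and 8.70. HSRA-C replicate 2 thus lay among the high solitary kidneys, and HSRA-S replicate 4 among the controls. The HSRA-S mean was 9.05 ± 0.13 and the HSRA-C mean 8.88 ± 0.19 (SD, n = 4 each), a difference of 0.17 with an SE of 0.10 and a 95% interval from -0.060 to 0.40 (limma adjusted p = 0.531). The difference is within the spread between replicates. Without HSRA-C replicates 3 and 4 it was 0.029, with an interval from -0.22 to 0.28.

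The 4 highest arrays of Slc9a3 were HSRA-S replicates 1, 2 and 3 and HSRA-C replicate 2, and a gap of 0.17 separated them from the next. The beta subunit gene Atp1b1 had the same 4 arrays on top, with a gap of 0.023. It was the 1 of the 7 other members with these arrays on top, and 5.43% of all genes tested had them there. Slc9a3 is known as a gene that glucocorticoids induce, and a list of 14 glucocorticoid-responsive genes was therefore set beside it after its values, and those of 5 list genes, had been seen. Of 12 list genes tested, 4 had the same 4 arrays on top: Fkbp5, Zbtb16, Sgk1 and Klf9. As values had been seen before the list was set, this count cannot be set against the 5.43%. Fkbp5, a cochaperone of the glucocorticoid receptor, was at 7.67, 7.69, 7.61 and 6.12 in the HSRA-S replicates. Its levels in the HSRA-C replicates were 6.84, 7.29, 5.96 and 6.15.

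The transcription factor gene Zbtb16 had the wider split. It stood at 7.40, 8.14, 8.15 and 5.19 in the HSRA-S replicates and at 6.01, 7.86, 6.02 and 6.17 in the HSRA-C replicates. Neither gene separated the groups (limma adjusted p = 0.485 for Fkbp5 and 0.686 for Zbtb16). Other list members did not follow that order. Tsc22d3, which encodes the glucocorticoid-induced leucine zipper, was lowest in HSRA-S replicate 4 at 6.28 and lay between 7.05 and 7.46 elsewhere. The mean of the 12 list genes ran from 7.05 to 7.88 in HSRA-S and from 7.30 to 7.72 in HSRA-C. Top2a, a topoisomerase of dividing cells, also had these 4 arrays on top, with 7.36, 7.32, 7.31 and 6.62 in HSRA-S and 6.0, 7.08, 6.48 and 6.32 in HSRA-C. The part of either pattern in the level of Slc9a3 was not tested.

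**Figure D2:**
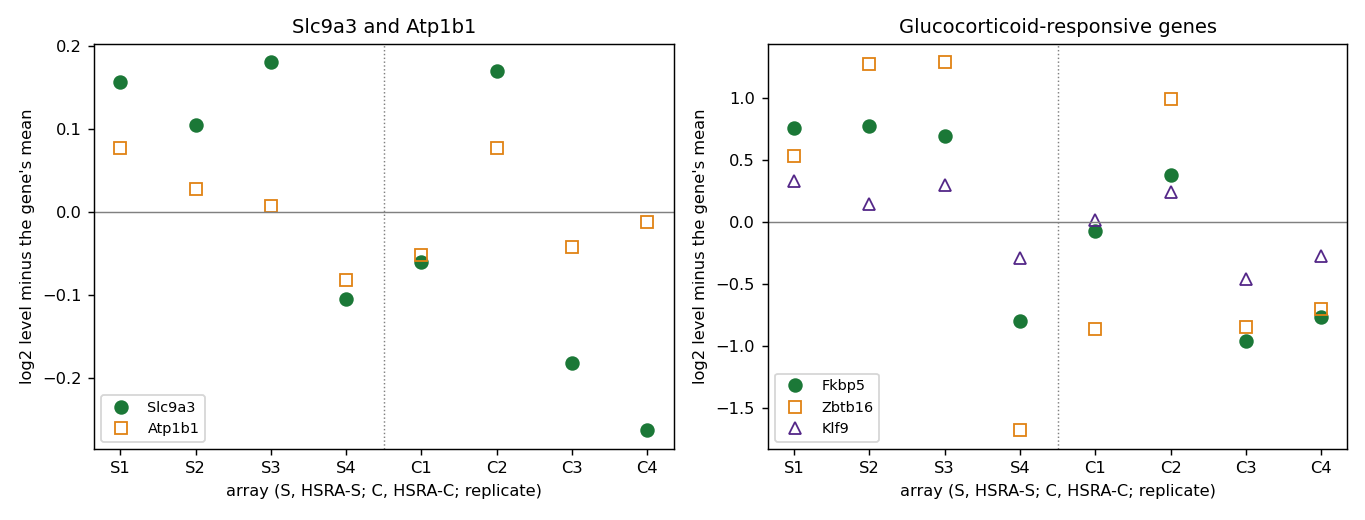
Log2 level minus the gene's mean over 8 arrays (vertical axis) for Slc9a3 and Atp1b1 (left) and for Fkbp5, Zbtb16 and Klf9 (right) on each array (horizontal axis; S, HSRA-S; C, HSRA-C, with the replicate number). In both panels S1, S2, S3 and C2 hold the 4 highest points of every gene shown, for which the genes were picked; 8 of the 12 tested genes of the glucocorticoid list do not have this order. The vertical scales differ between panels.

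The start region of Slc9a3 in the RefSeq table (assembly GRCr8) holds 1 E-box, the letters CACGTG, which clock proteins and other helix-loop-helix factors are known to bind. It lies 85 to 80 bases before the start site the table uses, and is shown in capitals within 30 bases of the minus strand (chr1:30996070-30996099), since a circadian drive of NHE3 is described for kidney. Slc13a3 has 2 copies of these letters, at 181 to 176 bases (chr3:174624057-174624086, minus strand) and 64 to 59 bases before it (chr3:174623940-174623969, minus strand).
Slc9a3: actgtttgcattCACGTGcgcagcgggggc
Slc13a3, upstream copy: tgcctcaaatccCACGTGagtccagagtgg
Slc13a3, downstream copy: ccggggcggttcCACGTGgctcctccccgc
Promoter sequences matched 7 of the 9 members by symbol, all but Atp1b1 and Fxyd2. In the 250 bases before the start, CACGTG was present in these 2 of 7 members and in 5.59% of all 33469 promoters (both strands searched). That share is not matched for base composition. The windows of Slc9a3 and Slc13a3 were 66.8% and 69.2% GC, against a median of 51.2% over all promoters. Those of Slc4a4 (80.8%) and Nherf1 (64.8%) were also rich in GC and lacked the letters. The core letters of a glucocorticoid receptor site, TGTTCT, were in 0 of 7 members and 17.5% of all promoters. Bmal1, whose product binds E-boxes with that of Clock, was at 7.19, 6.49, 6.25 and 5.58 in the HSRA-S replicates and 5.6, 6.69, 6.38 and 6.16 in the HSRA-C replicates. Its highest array was HSRA-S replicate 1, and its 4 highest arrays were not those of Slc9a3. Clock was at 8.11, 7.93, 7.87 and 7.76 in the HSRA-S replicates and at 7.67, 7.88, 7.73 and 7.67 in the HSRA-C replicates, so that its 4 highest arrays were those of Slc9a3. These matches describe the letters in this window and say nothing about occupancy.

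Slc13a1 encodes the luminal sodium-sulfate cotransporter, which recovers filtered sulfate. It was at 9.94, 9.92, 10.21 and 10.21 in the HSRA-S replicates and at 10.13, 10.19, 9.89 and 9.71 in the HSRA-C replicates. High and low arrays thus occurred in both groups, and their order differed from that of Slc9a3. The lowest 2 arrays were HSRA-C replicates 3 and 4, as for Slc9a3. The difference of 0.088 (SE 0.12, 95% interval -0.18 to 0.35) is within the spread between replicates, with SDs of 0.16 and 0.22 (n = 4 each). It turned to -0.091 without HSRA-C replicates 3 and 4, so these data give no direction for Slc13a1.

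On the blood side, Slc4a4 had the largest difference of the members. Slc4a4 encodes the electrogenic cotransporter through which proximal cells return bicarbonate to blood. It was at 11.05, 10.81, 10.75 and 11.11 in the HSRA-S replicates and at 10.70, 10.84, 10.27 and 10.38 in the HSRA-C replicates. HSRA-C replicate 2 lay above the lower pair of solitary kidneys, and HSRA-C replicates 3 and 4 lay well below all others. The mean of HSRA-S, 10.93 ± 0.17, was 1.30-fold that of HSRA-C, 10.55 ± 0.27 (SD, n = 4 each), with a 95% interval from 1.06-fold to 1.6-fold before adjustment. The difference was 0.38 (SE 0.13, limma adjusted p = 0.358), and an exact two-sided permutation test of the 8 values gave p = 0.0857, where the smallest p the design allows is 0.0286. Without HSRA-C replicates 3 and 4 the difference was 0.16, with an interval from -0.11 to 0.43.

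Slc13a3 encodes the sodium-dicarboxylate cotransporter that takes up citric acid cycle intermediates from the blood side. Its HSRA-S replicates were at 10.58, 10.51, 10.42 and 10.77, and its HSRA-C replicates at 10.49, 10.36, 10.41 and 10.32. Of the 6 proximal members it depended least on the control arrays of high medullary markers: its difference was 0.17 with all arrays (SE 0.082, 95% interval -0.0085 to 0.36) and 0.14 without HSRA-C replicates 3 and 4 (-0.11 to 0.39). HSRA-S replicate 4 was the highest array, and without it the difference was 0.11. The limma adjusted p was 0.427 with all arrays and 0.977 without the 2 controls. Slc26a1, the sulfate exchanger of the same membrane, could not be described.

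Pdzk1 and Nherf1 are scaffold proteins whose PDZ domains hold luminal transporters, NHE3 and the phosphate transporters among them, in the brush border. Pdzk1 was at 9.05, 9.04, 8.90 and 9.13 in the HSRA-S replicates and at 8.96, 8.89, 8.51 and 8.58 in the HSRA-C replicates. The solitary kidneys overlapped only with HSRA-C replicate 1, which lay above the lowest of them. The mean of HSRA-S, 9.03 ± 0.094, was 1.23-fold that of HSRA-C, 8.73 ± 0.22 (SD, n = 4 each; 95% interval 1.04 to 1.45). The difference of 0.30 had an SE of 0.11 and a limma adjusted p of 0.358, and the exact two-sided permutation test gave p = 0.0571. Without HSRA-C replicates 3 and 4 it was 0.11, with an interval from -0.090 to 0.31.

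Pdzk1 was the member whose start region matched a motif of a proximal transcription factor. The letters CAAAGTCCA, a site form of HNF4, end at the base before the start (9 to 1 bases before it) on the sense strand. They occurred in 1 of 7 members and in 0.338% of all promoters. The direct repeat form CAAAGGTCA was in 0 of 7 members and in 0.376% of promoters. The 250 bases before the start are shown because they hold this match (GRCr8, chr2:187064745-187064994, plus strand, HNF4 letters in capitals).
Pdzk1: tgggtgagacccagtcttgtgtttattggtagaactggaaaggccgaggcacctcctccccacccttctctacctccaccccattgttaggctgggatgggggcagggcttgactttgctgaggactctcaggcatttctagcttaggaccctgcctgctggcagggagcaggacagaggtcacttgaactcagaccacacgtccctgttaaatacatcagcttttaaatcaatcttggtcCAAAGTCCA
Hnf4a, which encodes a nuclear receptor needed for proximal tubule differentiation, was at 10.04, 10.05, 10.04 and 10.09 in the HSRA-S replicates. In the HSRA-C replicates it was at 9.95, 10.10, 9.65 and 9.74, so that its 2 lowest arrays were HSRA-C replicates 3 and 4, as for Pdzk1. Its difference was 0.20 (SE 0.095, limma adjusted p = 0.432) and became 0.032 without them. The same arrays were also the lowest for Slc9a3, Slc4a4, Slc13a1 and Nherf1. Only exact letters within 250 bases were sought, so a window without them does not tell whether HNF4 acts on that gene. The part of Hnf4a in the level of Pdzk1 was not tested.

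**Figure D3:**
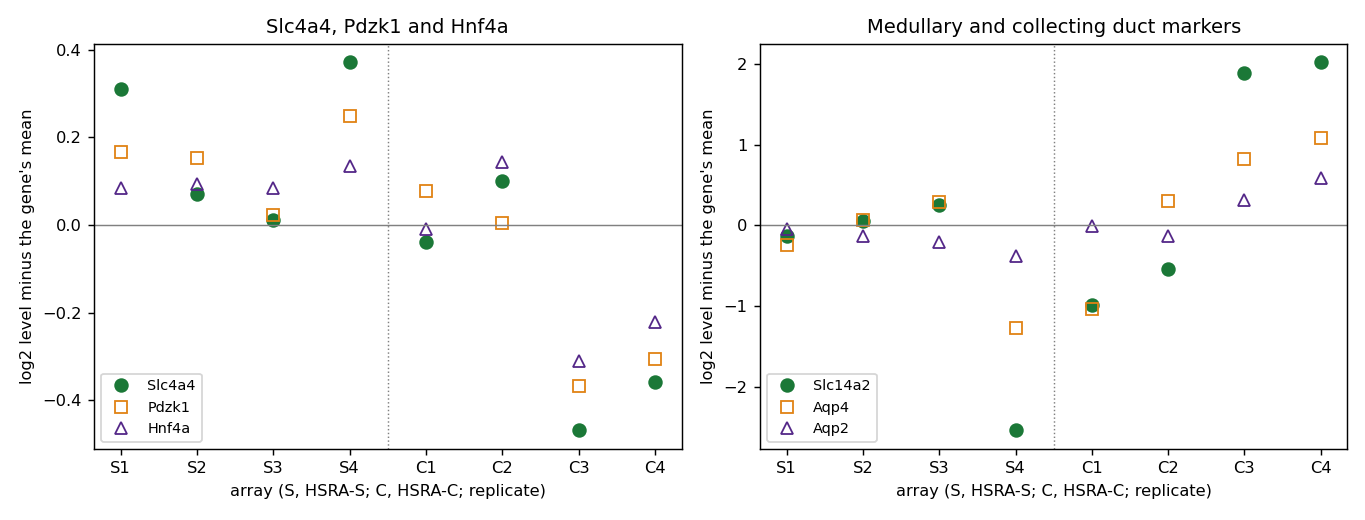
Log2 level minus the gene's mean over 8 arrays (vertical axis) for Slc4a4, Pdzk1 and Hnf4a (left) and for the collecting duct and medullary markers Slc14a2, Aqp4 and Aqp2 (right) on each array (S, HSRA-S; C, HSRA-C, with the replicate number). C3 and C4 hold the lowest 2 points of each gene on the left and the highest 2 of each gene on the right, and the vertical scales differ.

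Nherf1 differed less than Pdzk1. It was at 9.90, 9.82, 9.96 and 9.94 in the HSRA-S replicates and at 10.01, 9.93, 9.62 and 9.68 in the HSRA-C replicates. Its highest array was a control, and its lowest 2 were HSRA-C replicates 3 and 4. The difference was 0.097 (SE 0.092, 95% interval -0.11 to 0.30, limma adjusted p = 0.700), within the spread between replicates. It turned to -0.063 without those arrays (-0.24 to 0.12).

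The pump subunits varied least. Atp1b1 was at 12.01, 11.96, 11.94 and 11.85 in the HSRA-S replicates and at 11.88, 12.01, 11.89 and 11.92 in the HSRA-C replicates. Both groups covered nearly the same span, and the difference was 0.016 (SE 0.061). The 95% interval ran from -0.12 to 0.15, that is from 0.920-fold to 1.11-fold. Fxyd2 was at 11.78, 11.81, 11.81 and 11.84 in the HSRA-S replicates and at 11.83, 11.84, 11.90 and 11.84 in the HSRA-C replicates. Its difference was -0.044 (SE 0.053), with an interval from -0.16 to 0.074, or 0.894-fold to 1.05-fold.

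Over all 8 arrays Fxyd2 ranged by 0.13 and Atp1b1 by 0.16, while the 6 proximal members ranged by 0.39 (Nherf1) to 0.84 (Slc4a4). A narrower range than that of Fxyd2 was found in 1.69% of all genes tested, and than that of Atp1b1 in 4.88%. The range of Slc4a4 exceeded that of 94.3% of genes, and that of Pdzk1 exceeded 85.5%. The pump is present along the whole nephron and most densely in the thick ascending limb and distal convoluted tubule. Markers of these segments (10 of 12 tested) went both ways, 5 higher and 5 lower in HSRA-S, with a median difference of -0.024. At an unadjusted p under 0.05, 2 of the 10 were higher, against 7.36% of all genes: Calb1, a calcium-binding protein gene (difference 0.44), and the magnesium channel gene Trpm6 (0.34), both named after their values were seen. The list had array means from 9.42 to 9.70 in HSRA-S and 9.49 to 9.60 in HSRA-C. The 2 arrays of high medullary markers were at 11.89 and 11.92 for Atp1b1, inside the range of the others. For Fxyd2 they were at 11.90, the highest of all 8 arrays, and at 11.84.

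**Figure D4:**
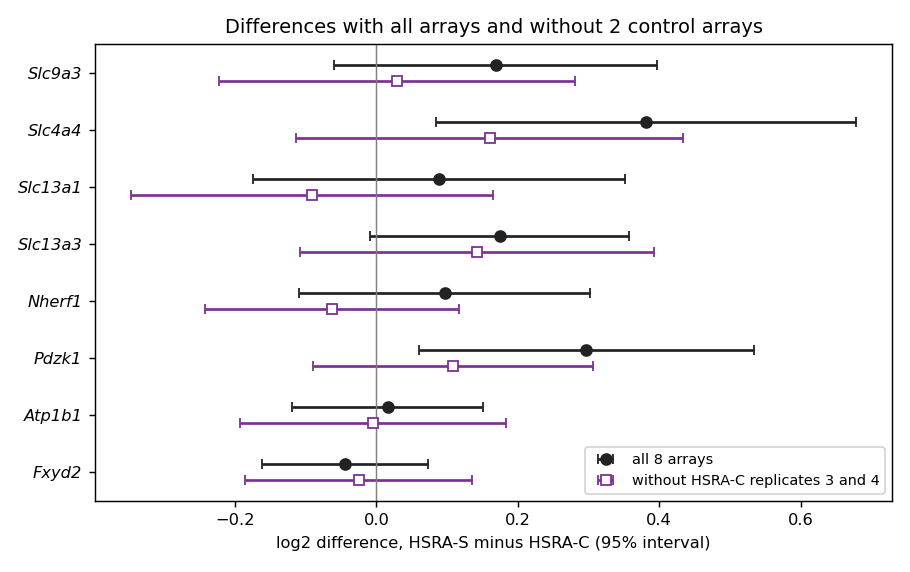
Log2 difference HSRA-S minus HSRA-C (horizontal axis) of the 8 members with its 95% interval from limma, with all 8 arrays (filled circles) and without HSRA-C replicates 3 and 4 (open squares). The intervals of Slc4a4 and Pdzk1 lie above 0 with all arrays, and every interval spans 0 without the 2 controls.

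The members did not move as 1 block across arrays. Slc4a4 and Pdzk1 were most alike (Pearson r = 0.953 and Spearman rho = 0.833 over 8 arrays, r = 0.778 over the 6 arrays without HSRA-C replicates 3 and 4). Pdzk1 and Slc13a3 had r = 0.751 over 8 arrays and 0.952 over 6. Slc9a3 and Pdzk1 went from 0.600 to -0.574 when the 2 arrays were left out, and Slc9a3 and Nherf1 from 0.608 to -0.411. Slc9a3 and Atp1b1 were alike in both, at 0.735 and 0.902. These correlations describe arrays that share a spread in medullary markers, and are given without a p.

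Averaged after each gene was centred, the 6 proximal members stood at 0.11, 0.036, 0.073 and 0.18 in the HSRA-S replicates. They stood at 0.041, 0.065, -0.24 and -0.26 in the HSRA-C replicates. HSRA-C replicates 1 and 2 thus lay inside the range of the solitary kidneys. The 4 other genes most like this profile were Plekhb2 (Pearson r = 0.989, Spearman rho = 0.881), the mitochondrial chaperonin Hspd1 (0.988, 0.833), the membrane progestin receptor Paqr7 (0.984, 0.905) and the glutamate cyclase Dglucy (0.983, 0.857), all over 8 arrays. Without HSRA-C replicates 3 and 4, the arrays farthest from the median, r was 0.925, 0.847, 0.769 and 0.764. Atp1b1 and Fxyd2 ran opposite ways (r = -0.617 over 8 arrays and -0.628 without HSRA-C replicates 3 and 4), so their average describes neither gene. That average lay between -0.034 and 0.040 on every array. The genes most like it were Cfap300 (r = 0.978), Bmp6 (0.968), Cpt1b (0.965) and Arf6 (0.951). Likeness to a profile that narrow rests on differences of a few hundredths.

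Related transport genes were taken from 5 lists of 63 genes, of which 54 were tested, 3 were too dim and 6 had no probe set of their own. At the adjusted threshold 0 of 54 passed. At an unadjusted p under 0.05, 5 were higher, against 7.36% of all genes, and 3 were lower, against 4.69%. Their median difference was 0.012, close to the 0.015 of all genes. The dicarboxylate and sulfate transporters (12 tested) had a median of 0.078 and the scaffolds and NHE3 partners (11 tested) one of 0.060. The medians were -0.048 for the list of other sodium-proton exchangers (7), -0.051 for bicarbonate transporters and carbonic anhydrases (14), and -0.034 for the other pump subunits (10). These lists also count Papss1 and Papss2 (dicarboxylate and sulfate), Chp1 (exchangers) and Ahcyl1 (bicarbonate), which are not transporters themselves.

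Among the higher genes, Car14, a membrane-bound carbonic anhydrase of the proximal tubule, had the widest difference. It was at 7.03, 7.02, 6.93 and 7.58 in the HSRA-S replicates and at 6.82, 6.71, 6.11 and 6.05 in the HSRA-C replicates, without overlap. The level was 1.64-fold higher in HSRA-S (difference 0.72, SE 0.20, limma adjusted p = 0.331), and the difference was 0.37 without HSRA-C replicates 3 and 4. Ezr, the ezrin that links Nherf1 to actin, was at 9.0 to 9.17 in HSRA-S and at 8.75 to 8.93 in HSRA-C, again without overlap. Its difference was 0.23 (SE 0.068, limma adjusted p = 0.331), and 0.15 without the 2 controls.

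Slc26a6, a chloride-oxalate and bicarbonate exchanger of the brush border, was at 5.12 to 5.25 in HSRA-S and at 4.93 to 5.03 in HSRA-C. Its groups did not overlap, and its difference of 0.20 (SE 0.057, limma adjusted p = 0.331) was also 0.20 without HSRA-C replicates 3 and 4. Slc9a2, the exchanger NHE2, overlapped between groups with a difference of 0.22 (SE 0.094). Groups without overlap were found for 4 of the 54 related genes, against 6.29% of all genes. The other one was Ahcyl1, which encodes a regulator of the Slc4a4 product, at a difference of 0.054 (chosen after its value was seen).

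On the lower side, Slc4a1, the chloride-bicarbonate exchanger of type A intercalated cells, was at 8.23, 8.23, 8.75 and 8.15 in the HSRA-S replicates and between 8.54 and 8.72 in HSRA-C. HSRA-S replicate 3 was thus the highest of all 8 arrays. The difference was -0.29 (SE 0.12) with all arrays and without the 2 controls. Fxyd1, the phospholemman that regulates the pump in other tissues, had a difference of -0.29 (SE 0.13), which was -0.12 without HSRA-C replicates 3 and 4. Slc9a5, a dim exchanger, was at -0.20 (SE 0.081), and Agtr1a, the angiotensin receptor that regulates NHE3, at -0.19 (SE 0.088) and -0.27 without the 2 controls. The limma adjusted p of these 4 lay between 0.388 and 0.421.

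**Figure D5:**
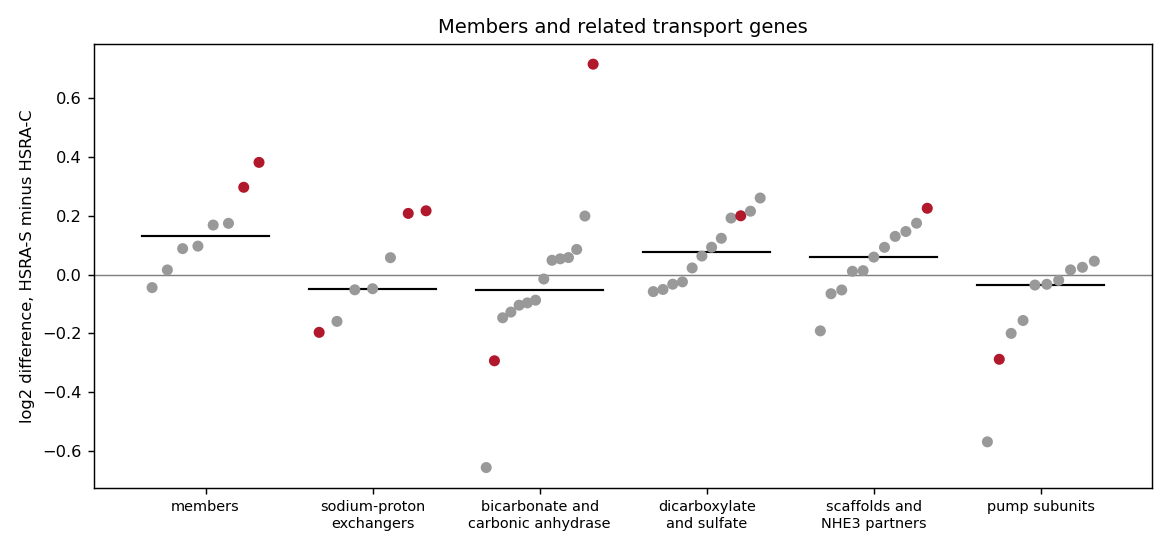
Log2 difference HSRA-S minus HSRA-C (vertical axis) of each tested gene in the members and in 5 lists of related genes (horizontal axis), with a line at each median and in red the genes at an unadjusted limma p under 0.05. The members' median is 0.13, and the lists' medians lie between -0.051 and 0.078; the lowest 2 points are Slc4a11 (-0.66) and Fxyd4 (-0.57), neither of them red.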

How the data were processed

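The authors deposited 1 linear intensity per probe set and array. RMA is named in the submitters' processing notes, without a version. RMA equalises arrays, which removes array-wide shifts, and compresses dim values. Log2 was taken of the deposited intensities. Array medians ran from 30.8 to 32.3, and arrays correlated at 0.987 to 0.995. Precision is limited by the number of arrays.

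Where a gene had several probe sets of its own, the brightest on average was used. The dimmest 20% of genes were left out (log2 mean below 3.63). The groups were compared with limma 3.58.1 in R 4.3.3 (lmFit and eBayes, group as the only term, all 8 arrays). P-values were adjusted over 13796 genes. The steps were tested on simulated data. Members and lists were chosen with earlier results of these data known. Named are all members, the 4 related genes of smallest p in each direction, Hnf4a, and the 4 genes most like each profile. The glucocorticoid list, Top2a, Bmal1, Clock, Calb1, Trpm6, Ahcyl1, Slc4a11 and Fxyd4 were chosen after their values were seen. Some named genes are not reported here. The files name no genome build, and promoter coordinates are those of RefSeq's GRCr8 table.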

Additional observations from a re-analysis of the deposited data

Results flagged for a closer look

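Among 82 groups of 4 arrays for the genes described, 12 held an array whose distance to its nearest neighbour was over 0.83 of the group's range. The rule flags about 1 in 20 groups by chance. Several of these genes were chosen after their values were seen, and all share the same arrays, so the 12 cannot be set against that rate. One was a member: Fxyd2 in HSRA-C replicate 3, at log2 11.90 against 11.83 to 11.84 in the other controls, within a very narrow range. HSRA-S replicate 4 accounted for 7 of the 12. It was high for Car14 (7.58 against 6.93 to 7.03 in the other solitary kidneys), Cubn (10.98 against 10.59 to 10.63) and Slc34a1 (12.09 against 11.83 to 11.86). It was low for Slc14a2 (4.44 against 6.85 to 7.22), Top2a (6.62 against 7.31 to 7.36), Fkbp5 (6.12 against 7.61 to 7.69) and Tsc22d3 (6.28 against 7.27 to 7.46). HSRA-C replicate 2 was high for Zbtb16 (7.86 against 6.01 to 6.17). HSRA-C replicate 1 was high for Slc9a2 (5.80 against 5.47 to 5.52) and low for Angptl4, a lipase inhibitor on the glucocorticoid list (3.94 against 4.71 to 4.83). HSRA-S replicate 3 was high for Slc4a1 (8.75 against 8.15 to 8.23).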

How the results depend on the processing

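No member passed the adjusted threshold in any of 17 alternatives, and 5 of the 8 kept their direction in all of them: Slc9a3, Slc4a4, Slc13a3, Pdzk1 and Fxyd2. Leaving out 1 array moved Slc4a4 between 0.29 and 0.48 and Pdzk1 between 0.22 and 0.37. Slc13a1 ranged from -0.0026 (without HSRA-C replicate 4) to 0.16, and Atp1b1 from -0.0082 (without HSRA-S replicate 1) to 0.045. Without HSRA-C replicates 3 and 4, an alternative chosen after the data were seen, Slc13a1 was at -0.091, Nherf1 at -0.063 and Atp1b1 at -0.0050. Genes called numbered 1 in place of 0 with the dimmest 50% left out and 1 with an intensity trend, Hoxb5 both times. The 1663 genes at an unadjusted p under 0.05 became 2895 over all probe sets, where more features were tested, 669 without HSRA-C replicates 3 and 4, and 1010 (without HSRA-C replicate 3; 1017 without replicate 4) to 1942 with 1 array left out. Replicate numbers did not pair the samples: deviations of same-numbered samples correlated between -0.11 and 0.13. With the replicate number as a block 1586 genes were at an unadjusted p under 0.05 and 0 passed adjustment. With 4 arrays a group, a difference of Slc9a3 as large as 0.40 lies inside its interval.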
